A study of Mus musculus with 4 samples.

Results

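The mouse Schlafen gene cluster on chromosome 11 was described here by its histone H4 acetylation, mapped by ChIP-seq (sequencing of immunoprecipitated chromatin) in bone marrow-derived macrophages. Members were the peaks that overlapped chr11:82750000-83030000 (build mm9), an interval of 280 kb that holds the Schlafen genes Slfn5, Slfn2, Slfn1, Slfn4 and Slfn3 by the rule that defined it. In all, 99 of the 175801 peaks in the 4 lists lay there. The interval was chosen by gene position, but with the calls, covered lengths and scores of these lists known, and it includes a region that had been picked out for its score. All values below are therefore descriptions.

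The cells were macrophages grown from the marrow of C57BL/6 mice and taken on day 7 of differentiation. There were 4 groups of 1 library each. HDAC3 KO cells (HDAC3 -/-) were given lipopolysaccharide (LPS, 100 ng/ml for 4 h) or left untreated, and so were the HDAC3 +/- cells that the labels call wild type (wt), which carry 1 intact copy of the gene. LPS is a component of the Gram-negative bacterial outer membrane that macrophages sense through Toll-like receptor 4. The sources used here give neither the promoter that drove deletion of HDAC3 nor the number of animals behind each library. With 1 library per group, no difference below has a replicate check.

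Schlafen proteins are regulators of growth, differentiation and innate immunity in vertebrates, and in mouse they fall into short, intermediate and long forms. Slfn1 and Slfn2 encode short forms, Slfn3 and Slfn4 intermediate ones, and Slfn5 a long one with a helicase-like part at its end. Slfn2 is needed for the quiescence of T cells and monocytes, Slfn1 slows the growth of T cells when overexpressed, and Slfn4 is a gene of myeloid cells that is switched on during macrophage activation. Several family members are induced by type I interferon, which LPS makes macrophages release. Acetylation of histone H4 is found at active promoters and enhancers, and HDAC3 removes acetyl groups as the enzyme of NCoR and SMRT corepressor complexes.

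The promoters of the 5 genes are shown because members share sequence elements there. The gene table used here (RefSeq, GRCm38.p6) lists all 5 members, in the order Slfn5, Slfn2, Slfn1, Slfn4 and Slfn3, with Slfn9, Slfn8 and Slfn10-ps between Slfn5 and Slfn2. The peaks are on mm9, another build, and positions were not converted. No peak is therefore assigned to a gene or laid on a promoter. Each sequence runs 5′ to 3′ on the + strand, which is the strand of the gene, from 250 bases before its start site to 50 after it, as RefSeq gives it on GRCm38.p6. The windows are chr11:82951852-82952151 for Slfn5, chr11:83064862-83065161 for Slfn2, chr11:83116570-83116869 for Slfn1, chr11:83174936-83175235 for Slfn4 and chr11:83191080-83191379 for Slfn3. Capitals mark matches to the core of the interferon-stimulated response element (GAAA, any 2 bases, GAAA) and to ACTTCCTGG, a stretch that 4 of the promoters share, on either strand.
Slfn5: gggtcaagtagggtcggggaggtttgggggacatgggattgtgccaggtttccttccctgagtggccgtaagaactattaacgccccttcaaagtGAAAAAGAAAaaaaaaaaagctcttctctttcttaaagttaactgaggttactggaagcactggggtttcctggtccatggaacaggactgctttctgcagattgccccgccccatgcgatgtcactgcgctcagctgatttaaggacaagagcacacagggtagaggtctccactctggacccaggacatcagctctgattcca
Slfn2: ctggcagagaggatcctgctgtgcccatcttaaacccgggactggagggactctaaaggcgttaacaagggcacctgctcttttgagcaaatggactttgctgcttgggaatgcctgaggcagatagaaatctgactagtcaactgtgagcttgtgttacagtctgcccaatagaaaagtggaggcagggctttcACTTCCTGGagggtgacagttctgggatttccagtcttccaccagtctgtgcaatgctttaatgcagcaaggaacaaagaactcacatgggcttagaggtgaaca
Slfn1: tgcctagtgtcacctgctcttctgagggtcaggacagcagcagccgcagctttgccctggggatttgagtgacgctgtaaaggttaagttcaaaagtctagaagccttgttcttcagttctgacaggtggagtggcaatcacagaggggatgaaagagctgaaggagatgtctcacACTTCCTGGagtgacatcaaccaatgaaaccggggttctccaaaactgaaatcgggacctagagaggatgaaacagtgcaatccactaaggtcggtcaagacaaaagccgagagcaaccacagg
Slfn4: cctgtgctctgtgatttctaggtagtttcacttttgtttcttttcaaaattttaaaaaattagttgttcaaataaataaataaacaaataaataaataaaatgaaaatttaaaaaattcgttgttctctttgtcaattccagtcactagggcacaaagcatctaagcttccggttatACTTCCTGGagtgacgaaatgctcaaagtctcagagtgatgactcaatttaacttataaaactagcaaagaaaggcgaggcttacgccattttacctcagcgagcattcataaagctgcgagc
Slfn3: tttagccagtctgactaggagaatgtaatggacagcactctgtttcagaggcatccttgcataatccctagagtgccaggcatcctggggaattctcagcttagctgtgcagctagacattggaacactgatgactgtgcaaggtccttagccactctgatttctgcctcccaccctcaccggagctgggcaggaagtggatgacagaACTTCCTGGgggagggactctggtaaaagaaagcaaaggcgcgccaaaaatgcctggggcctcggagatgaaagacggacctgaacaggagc

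The 9 bases ACTTCCTGG are the longest stretch common to the promoters of Slfn2, Slfn1, Slfn4 and Slfn3, and Slfn5 lacks them. They begin at base -55 in Slfn2, -74 in Slfn1, -73 in Slfn4 and -42 in Slfn3. Of all 32851 promoter windows in the table, 277 (0.84%) hold them. Read on the other strand, they carry the GGAA core that ETS factors recognise, a family that includes the macrophage factor PU.1. The longest stretch common to all 5 promoters, Slfn5 included, was TTCCTGG. It carries that core too, and 10.2% of all windows hold it. The longest stretch that Slfn1 and Slfn4 share, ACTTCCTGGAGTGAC, was found in 2 of the 32851 windows, and these are the promoters of Slfn1 and Slfn4. Slfn2 and Slfn1 share CACTTCCTGGAG, which 12 windows hold. The shared stretches were taken from the sequences themselves, so their presence in these members is a description.

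Slfn5 was the member whose promoter held the interferon response core, at base -155. That core is found in 3.44% of all windows. It was also present in Slfn9 and Slfn8, where it lies on the other strand, so that the window in the direction of the gene reads TTTCGTTTTC, beginning at base -45 in Slfn9 and at base -48 in the first of the windows listed for Slfn8. The AP-1 element TGANTCA was found in Slfn4 alone among the 5, at base -34 (7.81% of all windows hold it). The NF-kB element (GGG, any 2 bases, TTTCC), which 1.63% of windows hold, and the STAT element TTCNNNGAA, which 8.30% hold, were found in none of the 5. Each element was searched in the form given, and looser forms were not searched. A match is a string of letters, and none of these windows was measured for the binding of a factor.

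The 4 lists held 39550 to 48706 peaks, over 35.4 to 50.4 Mb. Read depth is unknown, because the lists give positions and scores only. Each peak's score is the authors' own value, on a scale that is not stated. In LPS-treated HDAC3 KO 370 peaks and in LPS-treated wt 288 peaks share a score of exactly 3100, so peaks with that value cannot be ordered. Above it lie 29 peaks in LPS-treated HDAC3 KO and 30 in LPS-treated wt. What the tied value stands for is not stated, so peaks above it need not be stronger than those at it. Scores are used below to describe peaks within their own list. The length of DNA that peaks cover moves with depth and with the efficiency of the immunoprecipitation, and the share of either in the values below was not tested.

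Across the interval, peaks covered 56.6 kb in LPS-treated HDAC3 KO, 10.4 kb in untreated HDAC3 KO, 38.8 kb in LPS-treated wt and 14.8 kb in untreated wt. These lengths are 20.2, 3.72, 13.9 and 5.29% of the interval in the same order. The cluster was thus covered most in LPS-treated HDAC3 KO and least in untreated HDAC3 KO, with both wt libraries between them. The peaks numbered 40 in LPS-treated HDAC3 KO, 15 in untreated HDAC3 KO, 24 in LPS-treated wt and 20 in untreated wt.

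**Figure D1:**
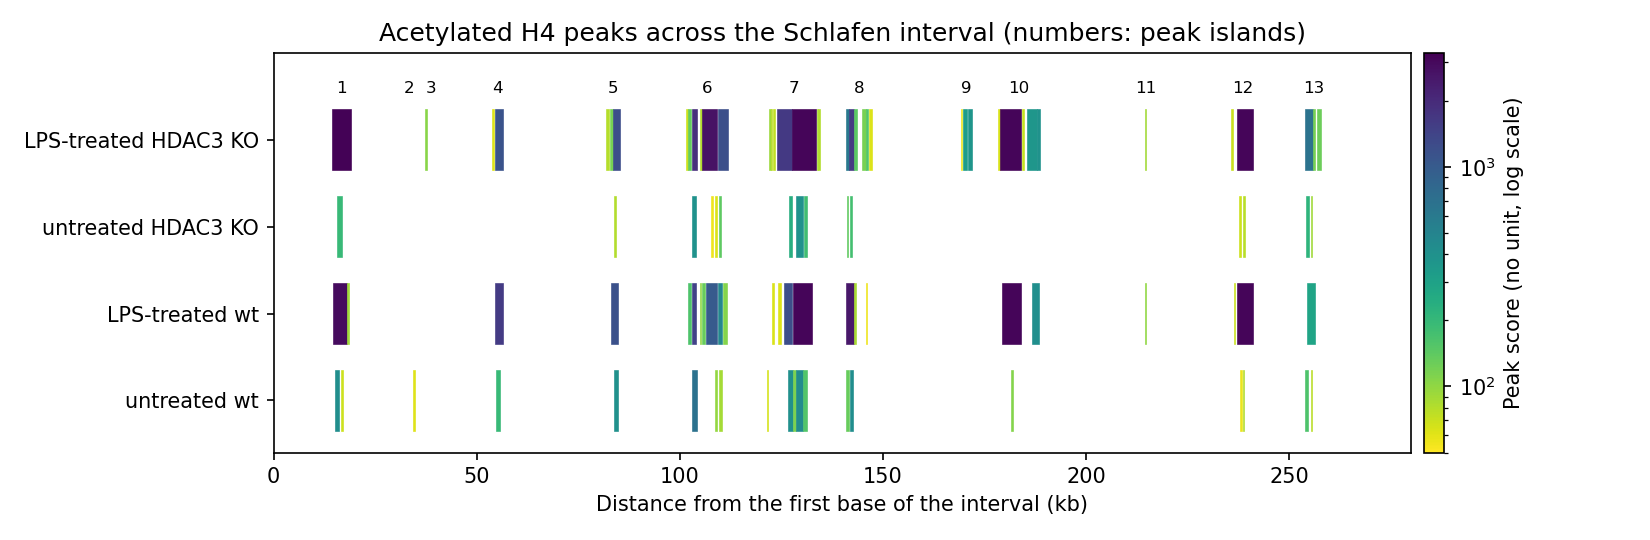
Peaks of acetylated H4 along the Schlafen interval, one row per library, with LPS-treated HDAC3 KO on top and untreated wt at the bottom. The horizontal axis is the distance from the first base of the interval in kb, each bar is a peak drawn to scale, its colour gives the score on a log scale, and the numbers 1 to 13 name the islands. The wide dark bars are in the LPS-treated rows.

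To follow the cluster along the chromosome, peaks of the 4 lists that lay within 2000 bp of each other were joined into 13 islands, numbered by position. The distance was chosen after the peaks were seen. Islands 3 and 9 had peaks in LPS-treated HDAC3 KO alone and island 2 in untreated wt alone. Island 11 was called in both LPS-treated libraries only. Islands 4 and 10 had peaks in every library except untreated HDAC3 KO, and the other 7 had peaks in all 4. These patterns were not counted over the islands of all chromosomes. Of 62522 regions formed there by joining only overlapping peaks, 14.5% were called in LPS-treated HDAC3 KO alone and 11.7% in untreated wt alone. Both LPS-treated libraries alone had 6.56%, all but untreated HDAC3 KO 3.45%, and all 4 libraries 28.5%.

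Peaks were absent from all 4 lists over long stretches between the islands. The longest runs without a peak were chr11:82938670-82964524 (25.9 kb) and chr11:82806492-82831762 (25.3 kb). The last 22.0 kb of the interval, after chr11:83007957, held no peak either. Beyond the edges, the nearest peaks lay 20.6 to 45.7 kb below the interval and 6.24 to 7.93 kb above it, while the first peaks inside lay 14.3 to 15.6 kb from the lower edge.

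The first comparison was the response to LPS within each genotype. In HDAC3 KO, covered length was 56.6 kb with LPS against 10.4 kb without, a ratio of 5.44 and a difference of 46.2 kb. In wt it was 38.8 kb with LPS against 14.8 kb without, a ratio of 2.62 and a difference of 24.0 kb. Over all chromosomes the same ratios were 1.38 in HDAC3 KO and 1.06 in wt, so the cluster's ratio was above that of its libraries in both genotypes. Scaled to the total covered length of each library, the cluster's ratios were 3.93 in HDAC3 KO and 2.48 in wt.

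The genome was tiled into windows of the same length as a background. In HDAC3 KO, 26.4% of 5184 windows with a peak in either library were covered at least 2-fold more with LPS, as the cluster was, and in wt 14.1% of 5268 were. A window with no peak in the untreated list and some with LPS counts as past 2-fold here. Among windows with at least 10 kb covered in the untreated library, a limit chosen after seeing the data, 8.51% of 1245 in HDAC3 KO and 2.57% of 1208 in wt passed 2-fold. None of those 1245 windows had a ratio as high as the cluster's 5.44 in HDAC3 KO, and 7 of the 1208 had one as high as its 2.62 in wt. With 10.4 kb covered in untreated HDAC3 KO, the cluster itself lay just above that limit.

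By the difference in length, 4 of 5470 windows (0.0731%) gained at least as much as the cluster with LPS in HDAC3 KO, and 15 (0.274%) did so in wt. Windows that overlap the cluster were left out of these counts. Since the cluster was chosen with such values known, its rank places it among the windows and is no evidence of its own.

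**Figure D2:**
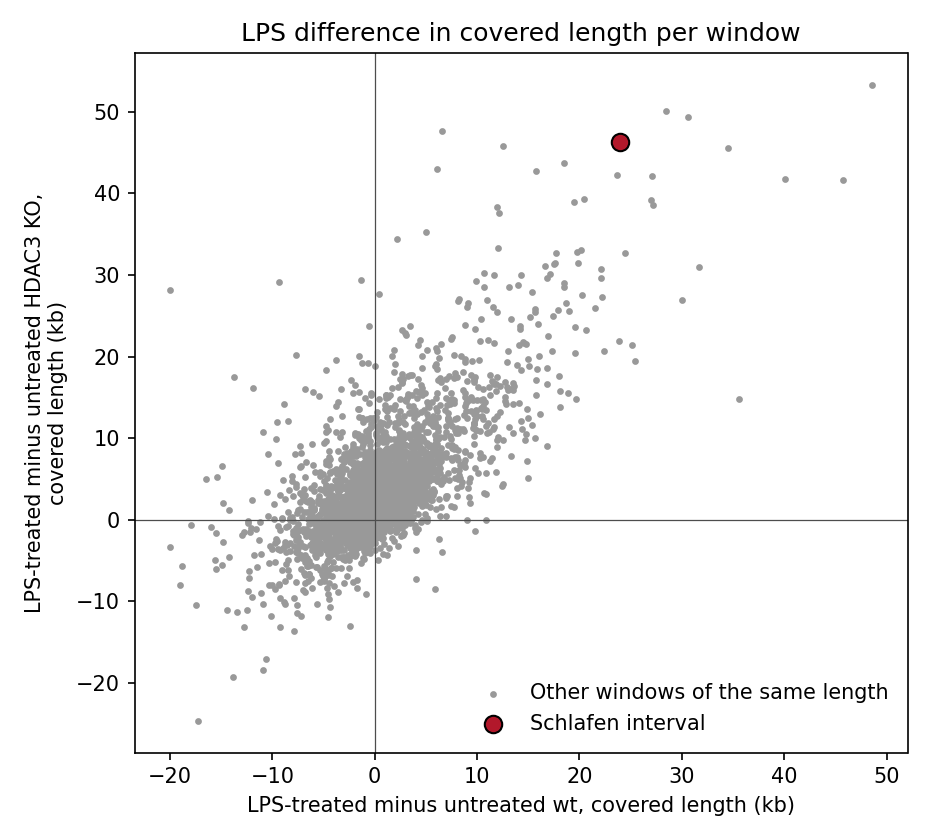
Each point is a window as long as the Schlafen interval. The horizontal axis gives covered length in LPS-treated minus untreated wt and the vertical axis the same difference in HDAC3 KO, both in kb. The Schlafen interval, at 24.0 kb in wt and 46.2 kb in HDAC3 KO, lies near the upper right end of the 5470 other windows.

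Nearly all bases called before LPS were still called with it. In HDAC3 KO, all 10411 bp covered in the untreated library were covered with LPS as well, and 46230 bp were covered with LPS alone. In wt, 13648 of the 14805 bp covered in the untreated library (92.2%) were covered with LPS, and 25169 bp were covered with LPS alone. The peaks of LPS-treated HDAC3 KO thus contained those of untreated HDAC3 KO, while 1157 bp of untreated wt had no peak in LPS-treated wt. The same shares over all chromosomes were not counted.

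Scores were read within each list. In LPS-treated HDAC3 KO 11 of the 40 peaks scored at least 1000, where 7.2% of that whole list did, and in LPS-treated wt 10 of the 24 did, where 7.09% of that list did. None of 15 peaks reached 1000 in untreated HDAC3 KO and none of 20 in untreated wt, where 1.96 and 1.45% of the whole lists did, so these counts are near the background. The highest untreated scores in the cluster were 398 in HDAC3 KO and 675 in wt. The highest listed score of the cluster in LPS-treated HDAC3 KO was 3223, and 1 peak in the whole list had a higher listed score. In LPS-treated wt it was the tied value of 3100, above which 30 peaks of the list lay. Whether peaks at the tied value are weaker than those listed above it is not known.

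Island 1, at the low-coordinate end of the cluster, held the peak with that score of 3223, chr11:82764329-82768991, which was 4663 bp wide in LPS-treated HDAC3 KO. In untreated HDAC3 KO the island held chr11:82765599-82766752, 1154 bp wide with a score of 195. In LPS-treated wt it held chr11:82764658-82768033, 3376 bp wide with a score of 2910, and beside it a weak peak of 610 bp with a score of 90.3. In untreated wt the main peak was chr11:82765164-82766230, 1067 bp wide with a score of 424. The same site was thus called in all 4 libraries, and its peak was widest in LPS-treated HDAC3 KO.

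Islands 2 and 3 were weak and each was called in a library of its own. Island 2, chr11:82784418-82784812, was a 395-bp peak with a score of 61.5 in untreated wt. Island 3, chr11:82787376-82787843, was a 468-bp peak with a score of 105 in LPS-treated HDAC3 KO. Neither reached the median score of its list, which was 116 in untreated wt and 145 in LPS-treated HDAC3 KO.

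Island 4, chr11:82803852-82806491, had no peak in untreated HDAC3 KO. In LPS-treated HDAC3 KO it held chr11:82804614-82806491, 1878 bp wide with a score of 1131, and in LPS-treated wt chr11:82804528-82806491, 1964 bp wide with a score of 1599. These peaks end on the same base. In untreated wt the peak was chr11:82804845-82805774, 930 bp wide with a score of 197. A weak satellite of 464 bp with a score of 62.1 was called in LPS-treated HDAC3 KO alone.

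Island 5, chr11:82831763-82835381, was covered over 3426 bp in LPS-treated HDAC3 KO, 642 bp in untreated HDAC3 KO, 1884 bp in LPS-treated wt and 926 bp in untreated wt. Its main peak scored 1237 in LPS-treated HDAC3 KO, 81.3 in untreated HDAC3 KO, 1162 in LPS-treated wt and 406 in untreated wt. With LPS, covered length was thus 5.34 times the untreated value in HDAC3 KO and 2.03 times in wt. It lies between long stretches without peaks.

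Island 6, chr11:82851649-82861990, combined a sharp peak with a broader stretch beside it. The sharp peak stood at nearly the same place in every library. It was chr11:82852929-82854354 in LPS-treated HDAC3 KO (1426 bp, score 1889), chr11:82852988-82854099 in untreated HDAC3 KO (1112 bp, score 390.2), chr11:82852994-82854091 in LPS-treated wt (1098 bp, score 1442) and chr11:82852931-82854149 in untreated wt (1219 bp, score 675). Weak peaks on its sides, with scores of 68.3 to 161, were called in the LPS-treated libraries alone. The sharp peak was the highest-scored of the cluster in untreated wt, and in wt it was no wider with LPS than without.

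The stretch beside it behaved differently. Between chr11:82855473 and 82861990, LPS-treated HDAC3 KO had peaks of 3807 bp (score 2692) and 2595 bp (score 1205). Untreated HDAC3 KO had there 3 small peaks of 434 to 543 bp with scores of 55.7 to 142. The stretch held 4 peaks in LPS-treated wt, with scores of 108 to 1012, and 2 in untreated wt, of 583 and 682 bp, with scores of 99.2 and 87.7. Over the whole island covered length was 9.19 kb in LPS-treated HDAC3 KO, 2.55 kb in untreated HDAC3 KO, 7.51 kb in LPS-treated wt and 2.48 kb in untreated wt.

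Island 7, chr11:82871555-82884608, was the longest, and in each library it had the greatest covered length of the 13. Covered length was 11.7 kb in LPS-treated HDAC3 KO, 3.14 kb in untreated HDAC3 KO, 7.66 kb in LPS-treated wt and 4.60 kb in untreated wt. The peak chr11:82877751-82883602, 5852 bp wide and the widest of the cluster in any library, scored 3100 in LPS-treated HDAC3 KO. At the same place LPS-treated wt had chr11:82877889-82882501, 4613 bp wide, also at 3100. The highest-scored peak there was chr11:82878599-82880367 in untreated HDAC3 KO (1769 bp, score 398) and chr11:82878675-82880351 in untreated wt (1677 bp, score 434).

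A neighbouring peak in island 7 was also widest in LPS-treated HDAC3 KO and next widest in LPS-treated wt, but here untreated wt was wider than untreated HDAC3 KO. It spanned chr11:82874016-82877734 in LPS-treated HDAC3 KO (3719 bp, score 1646), chr11:82876938-82877669 in untreated HDAC3 KO (732 bp, score 241), chr11:82875585-82877715 in LPS-treated wt (2131 bp, score 1221) and chr11:82876770-82877788 in untreated wt (1019 bp, score 406). Its upper edge lay at nearly the same place in all 4, while its lower edge lay farthest out in LPS-treated HDAC3 KO. The other peaks of the island were small, and the highest of them scored 180.4, in untreated HDAC3 KO.

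Island 8, chr11:82890830-82897389, was covered over 5109 bp in LPS-treated HDAC3 KO, 1056 bp in untreated HDAC3 KO, 2824 bp in LPS-treated wt and 1457 bp in untreated wt. In LPS-treated wt its main peak was 1 piece, chr11:82890836-82892827, 1992 bp wide with a score of 2540. In the other 3 libraries the same stretch was called as a pair of peaks, and the higher of each pair scored 1608 with LPS and 174 without it in HDAC3 KO, and 426 in untreated wt. Weak peaks from chr11:82892879 on added 3122 bp in LPS-treated HDAC3 KO and 832 bp in LPS-treated wt, and none were called there without LPS.

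Island 9, chr11:82919143-82921865, was called in LPS-treated HDAC3 KO and in no other library. It held peaks of 894 bp (score 324) and 973 bp (score 371) and a weak one of 328 bp (score 56.8). Both larger peaks lay above the median score of 145 of that list, so this was the most strongly scored part of the cluster found in 1 library alone.

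Island 10, chr11:82928396-82938669, had the largest difference with LPS of the 13, at 9345 bp in HDAC3 KO and 5888 bp in wt. Its main peak, chr11:82928864-82934117, was 5254 bp wide with a score of 3100 in LPS-treated HDAC3 KO, and no peak was listed anywhere in the island in untreated HDAC3 KO. In LPS-treated wt the peak was chr11:82929294-82933954, 4661 bp wide and also at 3100, against a peak of 630 bp, chr11:82931478-82932107, with a score of 108 in untreated wt. The whole island was covered over 9.35 kb in LPS-treated HDAC3 KO, 6.52 kb in LPS-treated wt and 0.63 kb in untreated wt. The ratio of LPS-treated to untreated wt was 10.3, the highest of the 9 islands with a peak in both wt libraries.

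A second stretch of island 10, beyond the main peak, was called with LPS in both genotypes and in neither untreated library. LPS-treated HDAC3 KO had there chr11:82935481-82937927 (2447 bp, score 367) and chr11:82937937-82938669 (733 bp, score 389), and LPS-treated wt had chr11:82936637-82938493 (1857 bp, score 413). Of the regions called in both LPS-treated libraries alone, this was the widest.

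Island 11 was a narrow peak with a run of 25.9 kb without a peak below it and another of 21.0 kb above it. It was chr11:82964525-82964758 in LPS-treated HDAC3 KO (234 bp, score 89.4) and chr11:82964526-82964757 in LPS-treated wt (232 bp, score 99.8). The edges differed by 1 bp on each side, the closest match of any pair of peaks in the cluster.

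Island 12, chr11:82985769-82991220, had weak peaks before LPS and a wide peak at the tied score with it, in both genotypes alike. With LPS, HDAC3 KO had chr11:82987193-82991220 (4028 bp, score 3100) and wt had chr11:82987198-82991077 (3880 bp, score 3100). The untreated libraries each had a pair of peaks inside this span, with scores of 69.1 and 78.0 in HDAC3 KO and 56.8 and 82.0 in wt. Covered length over the island was 4434 bp in LPS-treated HDAC3 KO, 684 bp in untreated HDAC3 KO, 4271 bp in LPS-treated wt and 943 bp in untreated wt. A weak peak below that span was called in each LPS-treated library, with a score of 70.1 in HDAC3 KO and 71.7 in wt. The genotypes were closer to each other here under LPS, at a ratio of 1.04, than at any other island above 1 kb.

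Island 13, chr11:83003992-83007957, closed the cluster with lower scores. Its main peak was chr11:83003992-83005920 in LPS-treated HDAC3 KO (1929 bp, score 672), chr11:83004101-83004942 in untreated HDAC3 KO (842 bp, score 216), chr11:83004329-83006293 in LPS-treated wt (1965 bp, score 285) and chr11:83004046-83004761 in untreated wt (716 bp, score 161). A peak of 1090 bp with a score of 129 lay beyond it in LPS-treated HDAC3 KO alone. At no other island with peaks in all 4 libraries was the highest score in LPS-treated wt below 1000.

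**Figure D3:**
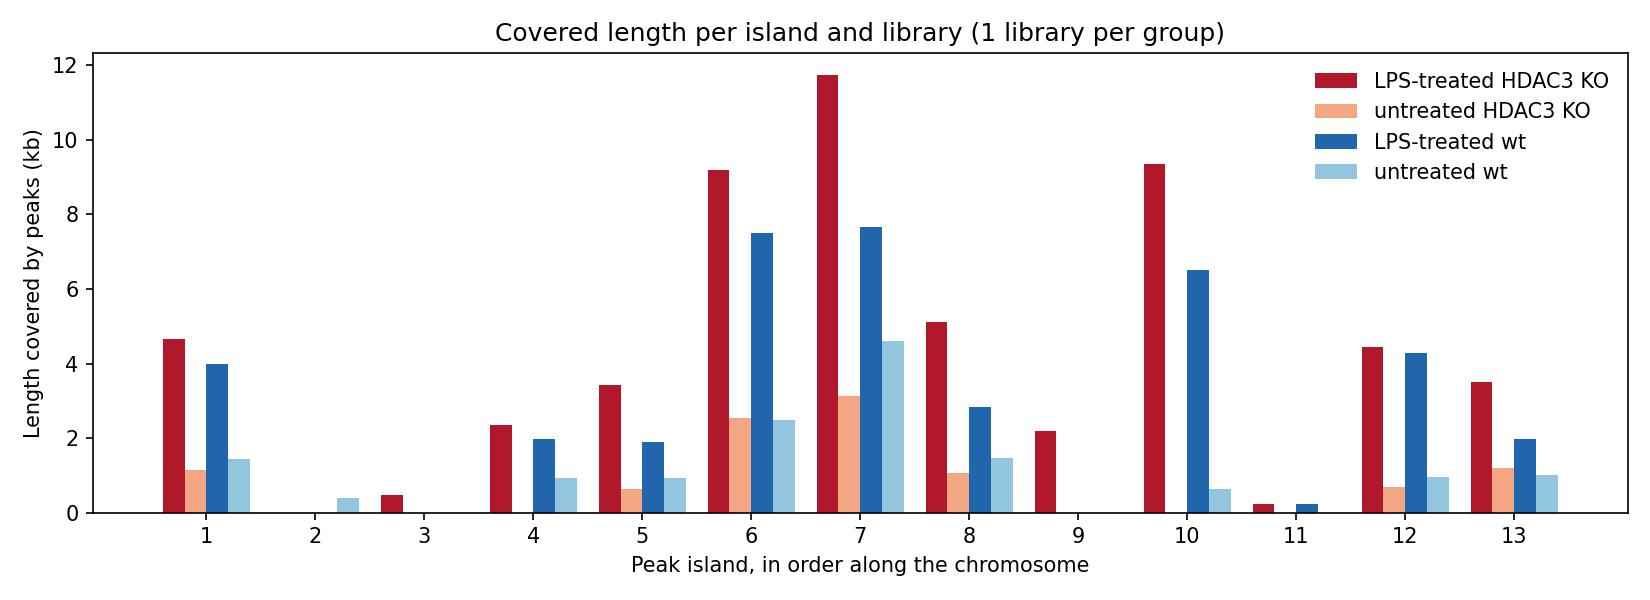
Length covered by peaks in each of the 13 islands, in kb, with 1 bar per library in the order LPS-treated HDAC3 KO, untreated HDAC3 KO, LPS-treated wt and untreated wt. Islands 6, 7 and 10 hold the longest covered stretches under LPS, and island 10 has no bar for untreated HDAC3 KO.

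In HDAC3 KO 12 of the 13 islands were covered over more bases with LPS than without, and none over fewer. Of the 35935 islands joined in the same way over all chromosomes, 51.7% were covered over more and 30.3% over fewer. In wt 10 were covered over more with LPS and 1, island 2, over fewer, where 38.8% of all islands were covered over more and 45% over fewer. The 2-fold mark was passed by all 7 of the islands with peaks in both HDAC3 KO libraries and by 6 of the 9 with peaks in both wt libraries, where the exceptions were islands 7, 8 and 13 at 1.67, 1.94 and 1.93. Over all chromosomes 17.1% of 17886 such islands passed it in HDAC3 KO and 12.7% of 17868 in wt.

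**Figure D4:**
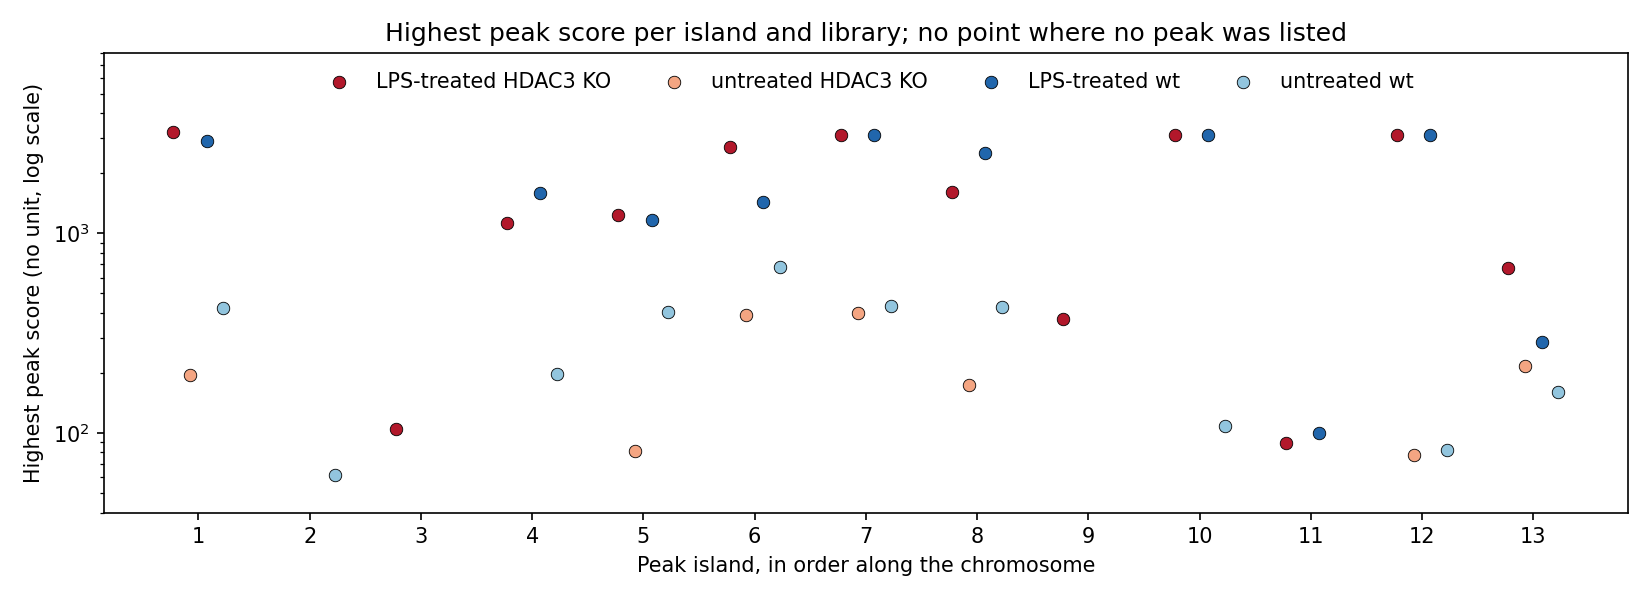
Highest peak score in each island and library, on a log axis without units, with no point where no peak was listed. Points at 3100 are tied values of the lists. In islands 1, 5 to 8, 12 and 13 the points of the LPS-treated libraries lie above those of the untreated libraries of the same genotype. So they do in wt at islands 4 and 10, where untreated HDAC3 KO has no point. The whole lists differ the same way. In HDAC3 KO and wt, 7.2 and 7.09% of all peaks scored at least 1000 with LPS, against 1.96 and 1.45% without. The pattern was not counted over all islands.

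Merging only peaks that overlapped by at least 1 bp gave 35 regions in the cluster, of 62522 over all chromosomes. In HDAC3 KO 23 of the 35 had a peak with LPS and none without, where 26.4% of all regions did, and 0 had the reverse, where 15.2% did. In wt 8 of the 35 had a peak with LPS alone, against 16.2% of all regions, and 2 without LPS alone, against 22.7%. The count of 8 in wt was 22.9% of the regions of the cluster, and so near the background that it says little, while the 23 in HDAC3 KO were 65.7%.

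Regions already called without LPS were mostly covered over more bases with it. Of the 9 regions with a peak in both HDAC3 KO libraries, 7 were covered over at least 2-fold more bases with LPS, where 13.1% of 23214 such regions genome-wide were. Of the 11 with a peak in both wt libraries, 7 were, where 10.9% of 22240 were. Among the 7 regions called in both LPS-treated and neither untreated library, which were 20.0% of the cluster's regions and 6.56% of all, scores went no higher than 389 in LPS-treated HDAC3 KO and 413 in LPS-treated wt. All peaks of at least 1000 lay in regions where untreated wt also had a peak, by the 1-bp rule. Those regions at islands 4 and 10 had no peak in untreated HDAC3 KO. The same was not counted over all regions.

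The second comparison set HDAC3 KO against wt before LPS. Peaks covered 10.4 kb in untreated HDAC3 KO and 14.8 kb in untreated wt, a ratio of 0.70, where the ratio over all chromosomes was 1.03. Of 5470 windows, 141 (2.58%) were lower in HDAC3 KO by as many bases as the cluster or more. The cluster did not pass 2-fold, which 14.2% of 5185 windows with a peak in either library did in this direction, as did 1.99% of 1208 with at least 10 kb covered in wt. Of those 1208 windows, 88 (7.28%) had a ratio as low as 0.70 or lower.

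By island, untreated HDAC3 KO was covered over fewer bases than untreated wt at 8 islands and over more at 2, islands 6 and 13, where 41.9% of all islands were covered over fewer and 38.8% over more. The largest shortfall was at island 7, with a difference of -1455 bp, and at islands 4 and 10 the peaks of 930 and 630 bp in untreated wt had no counterpart in untreated HDAC3 KO. In all, 4 of the 35 regions had a peak in untreated wt and none in untreated HDAC3 KO (19.1% of all regions did), and 0 had the reverse (13.1% of all did). Of the bases covered in untreated HDAC3 KO, 84.8% were covered in untreated wt too, whereas untreated HDAC3 KO covered 59.6% of the bases covered in untreated wt. Neither share was counted over all chromosomes.

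The third comparison set HDAC3 KO against wt under LPS. Peaks covered 56.6 kb in LPS-treated HDAC3 KO and 38.8 kb in LPS-treated wt, a ratio of 1.46. The ratio over all chromosomes was 1.35, and scaling to the libraries' totals left the cluster's ratio at 1.08. The 2-fold mark, which the cluster did not reach, was passed by 18.7% of 5232 windows with a peak in either library and by 5.1% of 1274 with at least 10 kb in wt. Of those 1274 windows 357 (28.0%) had a ratio of 1.46 or higher. By the difference in covered length, 17.8 kb, 86 of 5470 windows (1.57%) were higher in HDAC3 KO by as many bases or more, and 492 were after scaling to the libraries' totals.

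Under LPS 12 of the 13 islands were covered over more bases in HDAC3 KO than in wt, none was covered over fewer, and island 2 was empty in both. Of all islands 53.8% were covered over more in HDAC3 KO and 25.7% over fewer. The excess ran from 2 bp at island 11 to 4080 bp at island 7. At islands 1, 4, 6, 11 and 12 the ratio of HDAC3 KO to wt was 1.01 to 1.22, below the 1.35 over all chromosomes. Scaled to the libraries' totals, HDAC3 KO would not exceed wt there. At islands 5, 7, 8, 10 and 13 the ratio was 1.43 to 1.82, and islands 3 and 9 had no peak in wt. Of the bases covered in LPS-treated wt, 97.7% were covered in LPS-treated HDAC3 KO, against 67.0% the other way round. In the cluster, the acetylated stretches of LPS-treated wt thus lay almost wholly within those of LPS-treated HDAC3 KO. These shares were not counted over all chromosomes, where peaks covered 50.4 Mb in LPS-treated HDAC3 KO and 37.4 Mb in LPS-treated wt.

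The bases found in LPS-treated HDAC3 KO alone came to 18.2 kb, or 31.3% of the 58.2 kb covered in any library. Those found in LPS-treated wt alone came to 0.88 kb. Such bases were not counted over all chromosomes. By regions, 14 of the 35 were called in HDAC3 KO and not in wt under LPS, where 23.4% of all regions were, and 1 was called the other way round, where 11.6% were. All 14 were called in LPS-treated HDAC3 KO and nowhere else, a pattern that 14.5% of all regions had. The 14 were 328 to 1090 bp wide, with a median score of 80.3 and a highest score of 371. Of them, 7 lay within 500 bp of a peak of another library, a share that was not counted over all chromosomes.

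Where 1 peak of LPS-treated HDAC3 KO met 1 peak of LPS-treated wt, which happened 8 times, the HDAC3 KO peak was the wider in 7, and over all chromosomes it was in 68.2% of 19814 such pairs. The exception was island 4. At the wide peak of island 7 the lower edge lay 138 bp farther out in HDAC3 KO and the upper edge 1101 bp farther out. For the main peak of island 10 the distances were 430 and 163 bp, and for that of island 12 they were 5 and 143 bp. Over all peaks of the cluster, paired or not, the median width ran the other way, at 813.5 bp in LPS-treated HDAC3 KO and 1112 bp in LPS-treated wt. In the whole lists it was 836 bp in LPS-treated HDAC3 KO and 722 bp in LPS-treated wt.

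The genotype difference in the LPS response was 22.2 kb, that is 46.2 kb in HDAC3 KO minus 24.0 kb in wt. Of the 5470 windows, 21 (0.384%) had a difference as large. It joins a lower start in untreated HDAC3 KO with a higher end under LPS. After scaling to the libraries' totals, 87 windows had a difference as large.

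In the 280 kb below it, peaks covered 15.2 kb in LPS-treated HDAC3 KO, 7.24 kb in untreated HDAC3 KO, 8.01 kb in LPS-treated wt and 9.16 kb in untreated wt. In the 280 kb above it the lengths were 8.69, 8.52, 8.88 and 10.5 kb in the same order. With LPS, covered length was 2.10 times the untreated value below the cluster and 1.02 times above it in HDAC3 KO, and 0.87 and 0.85 times in wt. All 4 of these ratios were under those of the cluster, which were 5.44 in HDAC3 KO and 2.62 in wt. No peak of either flank reached a score of 1000, and the highest there was 972, in LPS-treated wt.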

How the data were processed

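Peaks of acetylated histone H4 were deposited as 1 list per ChIP library. The submitters' processing notes name Bowtie and the mm9 build. Per the file headers, MACS called the peaks of every ChIP library against input. The sources used here give no versions, settings or read depth, and do not say how reads matching several of these related genes were treated. The deposited score of each peak is the authors' value, with no stated scale. The cell type and the deletion of HDAC3 were not checked against marker or target loci, since no mm9 annotation was used here.

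Peaks overlapping the interval were taken as members, covered bases were summed, and regions were merged where peaks overlapped by at least 1 bp. Starts are counted from 1. The members and lists were chosen with earlier results of these data known. Every region of the cluster is accounted for, in full for the highest-scored ones. No test was made, since each group had 1 library. Summing, merging, tiling and calling were tested on 50 simulated sets of lists, and all 50 were recovered. Promoter letters were searched on both strands. Software was Python 3.11.15, numpy 2.4.6 and matplotlib 3.10.9.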

Additional observations from a re-analysis of the deposited data

Results flagged for a closer look

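Covered length in HDAC3 KO minus wt had opposite signs with and without LPS. Over the whole cluster it was 17824 bp with LPS and -4394 bp untreated. The same was seen at 7 islands. It was 677 and -272 bp at island 1, 378 and -930 bp at island 4, and 1542 and -284 bp at island 5, with LPS and untreated in that order. It was 4080 and -1455 bp at island 7, 2285 and -401 bp at island 8, 2827 and -630 bp at island 10, and 163 and -259 bp at island 12. Islands with both signs were not counted over all chromosomes, so the 7 have no background share. Of all islands 53.8% were covered over more bases in HDAC3 KO than in wt with LPS, and 41.9% over fewer untreated. With 1 library per group the difference between genotypes was not tested. Covered length over all chromosomes also differed between the genotypes, by a ratio of 1.35 with LPS and 1.03 untreated, and its part in these values was not tested. At islands 1, 4 and 12 the ratio with LPS was 1.17, 1.19 and 1.04, below that 1.35. Scaled to the libraries' totals, HDAC3 KO would not exceed wt there. At islands 5, 7, 8 and 10 the ratio with LPS was 1.82, 1.53, 1.81 and 1.43, above it.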

How the results depend on the processing

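All 4 ratios of covered length kept their direction and stayed within 1.5 times of the reported value under every alternative run. These were peaks at or above the median score, the 20000 highest-scored peaks, peaks joined across 500 bp, whole or wholly inside peaks, edges moved by 10 kb, and division by each library's total. The ratio of LPS-treated to untreated libraries ran from 3.93 to 5.77 in HDAC3 KO and from 2.42 to 3.68 in wt. HDAC3 KO over wt ran from 0.68 to 0.85 untreated and from 1.08 to 1.46 with LPS. Counts of regions moved more. Regions called in LPS-treated HDAC3 KO alone (14) numbered 4 with peaks at or above the median score, 2 with the 20000 highest-scored, 3 with peaks joined across 500 bp, and 7 where absence required no peak within 500 bp. Those called in both LPS-treated and neither untreated library (7) numbered 4, 4, 4 and 12 in the same order. Those called in all 4 libraries (9) were 25.7% of the cluster's regions, near the 28.5% of all regions. They numbered 5 at or above the median score and 5 among the 20000 highest-scored. After division by the totals, 492 windows exceeded the cluster's difference between LPS-treated HDAC3 KO and wt (86 as reported), and 87 exceeded its difference in LPS response (21 as reported). The cause was not tested. Joining across 1000 or 5000 bp, chosen after seeing the data, gave 14 or 12 islands. Depth limits every call, since a site with no listed peak may lie below the calling limit of a shallower library. No paired analysis was possible because each group had 1 library.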
